A study of Mus musculus with 6 samples.

Results

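Transcripts of 10 mouse genes were followed in prostate cancer cells given CSF-1, the macrophage growth factor. The genes were the C-type lectins *Mrc1*, *Clec4d* and *Clec7a*, the collectins *Colec10* and *Colec12*, the TAM receptor tyrosine kinases *Mertk*, *Axl* and *Tyro3*, and the TAM ligands *Gas6* and *Pros1*. They were taken by name from the 36163 gene names on the array, where 9 of them had 1 probe and *Tyro3* had a further probe, which made 11 probes. *Colec10* was chosen for its high rank among the changes of these same arrays, and the other members were chosen with results of these arrays known. The comparisons with unstimulated cells are therefore given as a description, and no p-value is printed for any of the 10 genes. The calls and intervals given for them come from the same contrasts and do not allow for this choice.

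The cells were N18-Fms cells, labelled N18-CFMS. N18 is a luciferase-transfected subclone of the clonal TRAMP C2H prostate tumor line, and it had been transduced with a retrovirus carrying murine c-fms, the CSF-1 receptor, and sorted for the receptor. All groups carried the luciferase vector and the receptor and grew in medium with serum and dihydrotestosterone. The unstimulated group received vehicle, and the other groups received recombinant mouse CSF-1 at 100 ng/mL for 24 h or for 48 h, with 2 single-colour arrays per group and 6 in all. Since the receptor was introduced into 1 subclone of 1 tumor line, and no line without the receptor was hybridised with CSF-1, the arrays compare stimulation in this population alone. In RNA from a whole culture, a change in the number of cells that make a transcript and a change in RNA per cell cannot be told apart.

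C-type lectins recognise carbohydrates through a calcium-dependent domain, and macrophages and dendritic cells use them to bind microbes and glycoproteins. Collectins join the same kind of domain to a collagen-like stem. TAM receptors bind phosphatidylserine exposed on dying cells through the bridging ligands Gas6 and protein S, and so take part in the clearance of apoptotic cells and in damping of innate immune responses. In macrophages, the mannose receptor and MERTK are well-known surface markers. CSF-1 itself supports the survival and differentiation of that lineage.

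Each array held 59305 spots other than controls, of which between 58.7% and 72.0% were well above background and 0 were saturated, and replicate arrays correlated at 0.982 to 0.984 over all probes. Values are given as log2 of the processed signal minus log2 of the array's 75th percentile, so that 0 is the signal of a probe at that percentile. A gene entered the test when, in 1 group or more, its brightest probe was well above background on each array, which left 24634 genes. It was called when the limma fit to all 6 arrays gave an unadjusted p under 0.05 and a change of at least 2-fold. At 24 h 1443 genes were called higher and 449 lower, and at 48 h 1147 and 449, with 840 higher and 266 lower at both times. Centring each array on its median instead moved the median change of all genes at 24 h from 0.04 to −0.25 and gave 923 higher and 1018 lower there, and 1022 and 645 at 48 h. Quantile normalization gave 954 higher and 596 lower at 24 h. The 24 h replicate 1 array lay on a slide and scan session of its own, apart from the other 5. Both times were set against the same unstimulated arrays, so their changes are not independent of each other.

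Of the 10 genes, 9 were tested, and *Clec7a* was not. At 24 h 5 of the 9 were called higher, namely *Mrc1*, *Clec4d*, *Colec10*, *Mertk* and *Pros1*, where 5.86% of all tested genes were called higher. The same 5 were called higher at 48 h, beside 4.66% of all tested genes. With a Benjamini-Hochberg adjusted p under 0.05 in place of the unadjusted p, 4 remained at each time, beside 4.55% and 3.95% of all genes, and *Clec4d* was the gene left out. No member was called lower by limma at either time, beside 1.82% of all genes at each, and the methods' t-test called 0 lower. At an unadjusted p under 0.05 and any fold, 5 of the 9 were higher and 2 lower at 24 h, and 6 higher and 2 lower at 48 h. Those lower did not reach 2-fold. The share of all genes under that looser rule was not counted. Because the members were chosen from these contrasts, nothing is read from these shares. The plot of values by array shows that each of the 5 called genes was higher on all 4 stimulated arrays than on either unstimulated array.

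**Figure D1:**
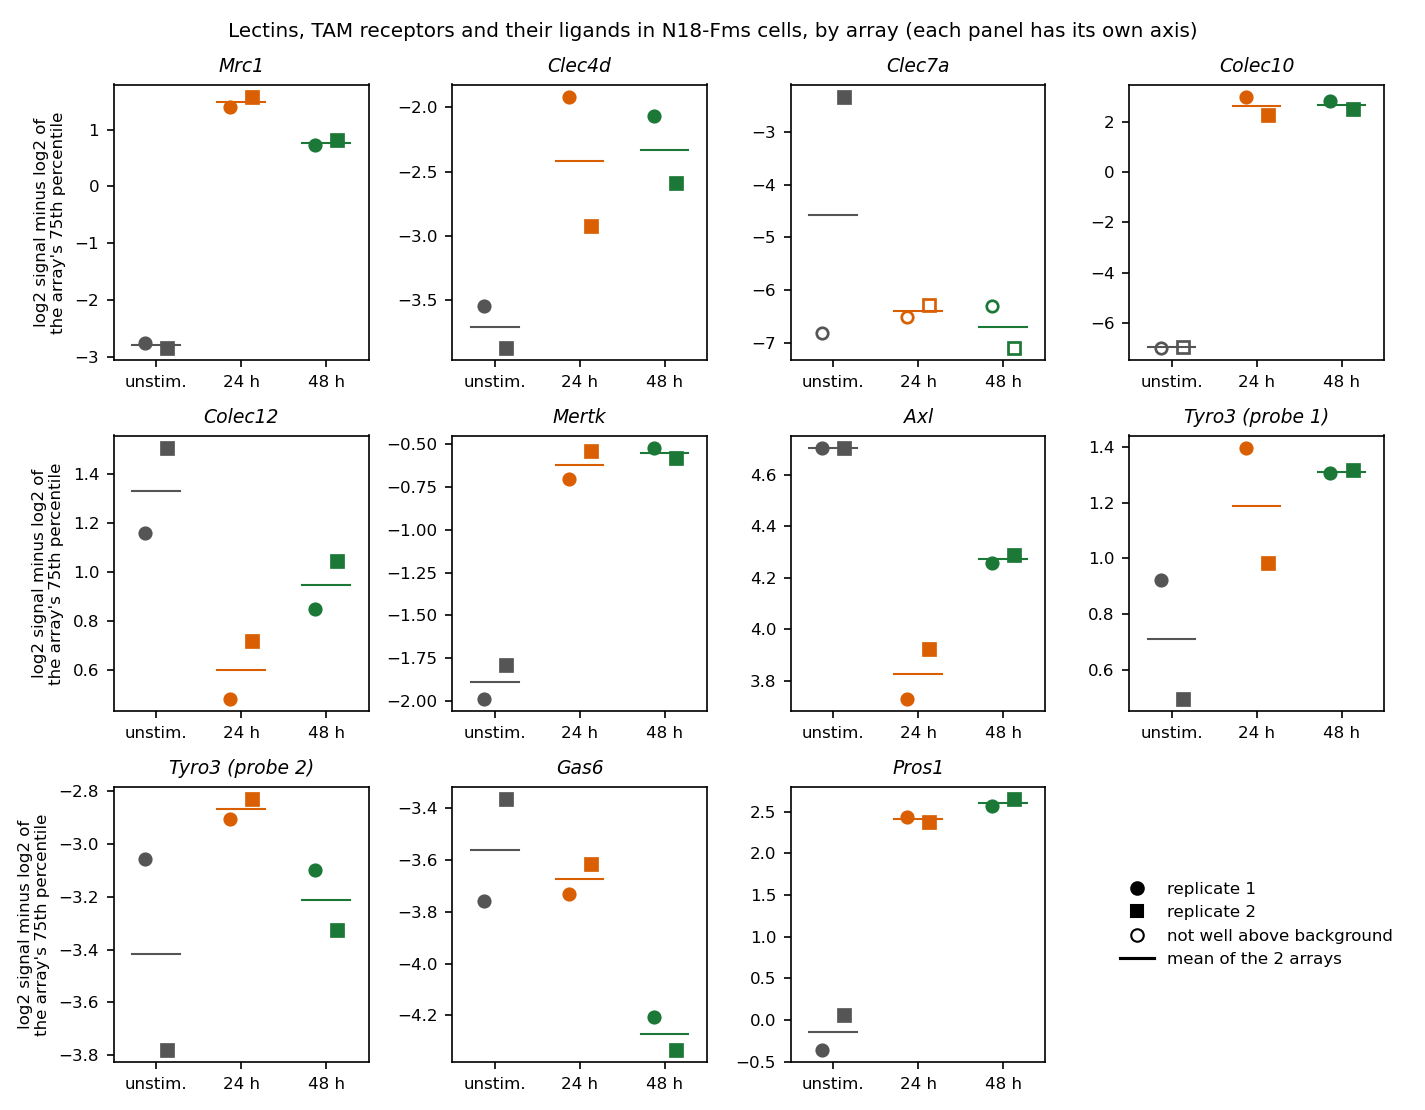
Signal of each of the 11 probes on the 6 arrays, as log2 relative to the array's 75th percentile, with a separate vertical axis in each panel. Circles are replicate 1, squares replicate 2, open symbols spots not well above background, and lines group means. *Colec10* went from about −7 on both unstimulated arrays to between 2.27 and 2.98 on the stimulated arrays, while *Clec7a* was above background on a single unstimulated array.

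The promoters of the 4 called members that have an entry in the RefSeq table (GRCm38.p6) are shown, to set the upstream sequence of genes that moved together side by side. Each run covers 250 bases before and 50 bases after the annotated start, 5′ to 3′ on the gene's strand, and capitals mark matches on either strand to the motifs described after them.
Mrc1, chr2:14229164-14229463, plus strand: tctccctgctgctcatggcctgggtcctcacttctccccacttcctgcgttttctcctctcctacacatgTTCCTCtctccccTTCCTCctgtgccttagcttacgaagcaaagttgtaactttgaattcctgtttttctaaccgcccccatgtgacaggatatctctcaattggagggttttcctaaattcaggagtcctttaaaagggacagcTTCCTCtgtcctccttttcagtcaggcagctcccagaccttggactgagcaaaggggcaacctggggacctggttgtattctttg
Clec4d, chr6:123261857-123262156, plus strand: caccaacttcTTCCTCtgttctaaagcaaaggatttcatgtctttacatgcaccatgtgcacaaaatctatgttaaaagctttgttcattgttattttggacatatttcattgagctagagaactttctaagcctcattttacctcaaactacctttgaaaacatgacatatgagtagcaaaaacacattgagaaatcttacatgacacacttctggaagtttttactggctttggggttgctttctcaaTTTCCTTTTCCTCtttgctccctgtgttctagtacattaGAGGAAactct
Mertk, chr2:128698665-128698964, plus strand: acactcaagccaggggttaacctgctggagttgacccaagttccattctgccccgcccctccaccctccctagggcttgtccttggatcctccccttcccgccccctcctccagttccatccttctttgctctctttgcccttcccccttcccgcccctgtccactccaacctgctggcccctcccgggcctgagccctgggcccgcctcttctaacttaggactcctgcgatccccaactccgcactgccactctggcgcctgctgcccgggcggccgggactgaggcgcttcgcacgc
Pros1, chr16:62854057-62854356, plus strand: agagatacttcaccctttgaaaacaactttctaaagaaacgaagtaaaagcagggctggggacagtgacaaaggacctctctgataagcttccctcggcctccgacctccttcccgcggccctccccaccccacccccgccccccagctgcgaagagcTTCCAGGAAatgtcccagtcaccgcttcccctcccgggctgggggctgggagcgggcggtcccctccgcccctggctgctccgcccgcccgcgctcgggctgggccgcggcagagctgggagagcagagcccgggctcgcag

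4 motifs were searched on both strands, and a match here is a match of letters only. The letters TTCNNNGAA, the form bound by STAT proteins, occurred in 8.30% of the 32851 promoters in the table. Among the 8 members with an entry they occurred in *Pros1* alone, 92 bases before the start. GAGGAA, the core bound by ETS factors such as PU.1, occurred in 28.3% of all promoters. It was found in *Mrc1* on the opposite strand, with matches that begin 180, 167 and 35 bases before the start, in *Clec4d* at 3 places, and once each in the promoters of *Clec7a* and *Axl*. The interferon-stimulated response element, written as GAAA, any 2 bases and GAAA, occurred in 3.44% of all promoters and in *Clec4d* at its start on the opposite strand, where it overlaps a match to the ETS core. The AP-1 site TGANTCA, held by 7.81% of all promoters, had no match in the 8 members. *Mertk*, *Tyro3* and *Gas6* had no match to any of the 4, and the map of matches shows that members called higher and members not called both held the ETS core. *Colec10* and *Colec12* are not in the promoter table.

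**Figure D2:**
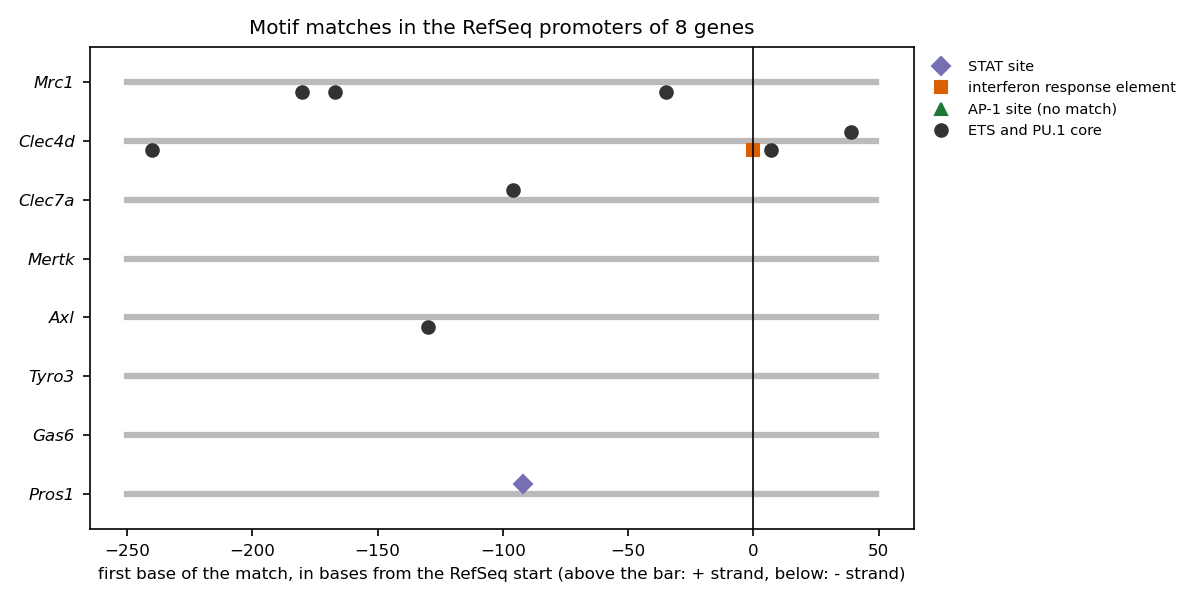
Positions of motif matches in the RefSeq promoters of 8 genes, in bases from the annotated start at 0, with plus-strand matches above the grey bar and minus-strand matches below it. *Pros1* holds the only STAT-site match, and the ETS core lies in *Mrc1*, *Clec4d*, *Clec7a* and *Axl*.

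*Mrc1*, which encodes the mannose receptor CD206, had the larger change of the 2 C-type lectin members that could be tested. Its probe lies at chr2:14253273-14253332 on the plus strand of mm9, and the first 30 of its 60 bases read ctttttcagcagtcctgattcatgtcagtt. The unstimulated arrays read −2.74 and −2.84, the 24 h arrays 1.40 and 1.57, and the 48 h arrays 0.72 and 0.82. No pair of groups overlapped. The log2 change was 4.27 (SE 0.12, 95% interval 3.97 to 4.58) at 24 h, a 19.3-fold higher signal, and 3.56 (3.26 to 3.86) or 11.8-fold at 48 h. Between the times the level was lower at 48 h than at 24 h by a log2 difference of −0.71 (−1.02 to −0.41), under 2-fold. *Mrc1* stayed called at both times under all 17 other settings of the analysis, with its smallest changes, 3.35 and 2.70, after normexp background correction.

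*Clec4d*, a C-type lectin of myeloid cells that pairs with an activating signalling chain, was also higher, at signals near the lower end of the scale. Its probe (chr6:123224788-123224847, plus strand, mm9) begins with aggatttgtaaattacctggaataacattc. It read −3.54 and −3.87 in unstimulated cells, −1.92 and −2.92 at 24 h, and −2.07 and −2.59 at 48 h, well above background on each array. The stimulated arrays lay above the unstimulated ones without overlap, but the 24 h replicates varied with an SD of 0.71 (n = 2), and the 24 h and 48 h values overlapped. The log2 change was 1.29 (0.36 to 2.22) at 24 h and 1.38 (0.45 to 2.31) at 48 h. The call rested on single arrays. It was lost at 24 h without the 24 h replicate 1 array on the separate slide (0.79) and without unstimulated replicate 2 (1.12), and at 48 h without unstimulated replicate 2 (1.22) and without 48 h replicate 1 (1.12). It was also lost after normexp background correction, where the change was 0.68 at 24 h and 0.70 at 48 h. By the methods' t-test *Clec4d* was not called at 24 h.

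*Clec7a* encodes Dectin-1, the macrophage receptor for fungal beta-glucan. Its probe was well above background only on the unstimulated replicate 2 array, with a processed signal of 121.6 there against 4.89 on unstimulated replicate 1. The 24 h arrays read 6.28 and 7.66 and the 48 h arrays 7.02 and 4.40, none of them well above background. The replicates of the unstimulated group thus differed by more than any pair of groups, and no change is given. Leaving out unstimulated replicate 1 made the gene testable through unstimulated replicate 2 alone, with fitted differences of −4.07 at 24 h and −4.37 at 48 h. The stimulated signals in them were at background, so these values are no bound and no measured fall.

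*Colec10*, which encodes the secreted collectin CL-L1, had the most extreme change of the 10 genes. It was read by a probe at chr15:54297813-54297872 (plus strand, mm9) that begins with ggtgattctagcagatgctcattcagtctg. The processed signal was 4.35 and 4.94 on the unstimulated arrays, 4511 and 2889 at 24 h, and 3876 and 3385 at 48 h. Neither unstimulated spot was well above background, whereas all 4 stimulated spots were. The unstimulated level therefore has only a bound, set by the lowest signal well above background on each array, and the stimulated levels were at least 163.2-fold higher at 24 h and at least 165.8-fold higher at 48 h. On the log2 scale the 24 h arrays read 2.98 and 2.27 and the 48 h arrays 2.81 and 2.49, so that the times overlapped, and they differed by 0.02 (−0.62 to 0.67). After normexp background correction the fitted log2 change was 5.74 at 24 h and 5.77 at 48 h, values that the added offset of 50 helps to set and that are no bound.

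*Colec12*, a membrane collectin that also acts as a scavenger receptor, went the other way by less than 2-fold. It read 1.16 and 1.50 in unstimulated cells, 0.48 and 0.72 at 24 h, and 0.85 and 1.04 at 48 h, all well above background. The groups did not overlap, and the 48 h values lay between the others. The log2 change was −0.73 (−1.17 to −0.30) at 24 h and −0.39 (−0.82 to 0.05) at 48 h. With arrays centred on the median, the 24 h value was −1.02 and was called.

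The 3 TAM receptors differed in direction. *Mertk* was higher at both times, *Axl* was lower by less than 2-fold, and *Tyro3* was not called. The *Mertk* probe (chr2:128627867-128627926, plus strand, mm9) begins with agcaccaggtgaaagctgtcaagtcaggtt. It read −1.99 and −1.79 in unstimulated cells, −0.71 and −0.54 at 24 h, and −0.52 and −0.58 at 48 h. The stimulated arrays all lay above the unstimulated arrays, and the 2 times overlapped. The change was 1.27 (0.94 to 1.59) at 24 h and 1.34 (1.01 to 1.66) at 48 h, or 2.40-fold and 2.52-fold. Under median centring, where all genes shifted down as given above, the 24 h value was 0.98, just under 2-fold.

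*Axl*, which binds Gas6 with high affinity and is widely made by mesenchymal and tumor cells, was read well above the 75th percentile on every array. It read 4.70 on both unstimulated arrays, 3.73 and 3.92 at 24 h, and 4.26 and 4.29 at 48 h. The 3 groups were apart from each other, with 24 h lowest. The change was −0.88 (−1.17 to −0.58) at 24 h and −0.43 (−0.72 to −0.14) at 48 h, and the 48 h arrays were higher than the 24 h arrays by 0.45 (0.15 to 0.74). Median centring made the 24 h value −1.16, which was called. The changes of *Mertk* and *Axl* had opposite signs under both scalings.

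*Tyro3*, best known from the nervous system and dendritic cells, was read by 2 probes. The brighter probe gave 0.92 and 0.49 in unstimulated cells, 1.40 and 0.98 at 24 h, and 1.31 and 1.32 at 48 h. Its change was 0.48 (−0.04 to 1.002) at 24 h and 0.60 (0.08 to 1.12) at 48 h, under 2-fold at both times. The dimmer probe gave −3.06 and −3.78 in unstimulated cells, −2.91 and −2.83 at 24 h, and −3.10 and −3.33 at 48 h. On the dimmer probe the 48 h arrays fell within the range of the unstimulated arrays, with a mean difference of 0.20, so the 2 probes disagreed on whether the groups were apart at 48 h. The brighter probe lies at chr2:119643759-119643818 and the dimmer at chr2:119642510-119642569, both on the plus strand of mm9.

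The 2 TAM ligands also differed from each other. *Pros1*, which encodes protein S, a vitamin K-dependent plasma protein and a ligand of MERTK and TYRO3, was higher at both times. Its probe (chr16:62928674-62928733, plus strand, mm9) begins with atcagagacatcaggttatgctgtaagagg. It read −0.36 and 0.06 in unstimulated cells, 2.44 and 2.38 at 24 h, and 2.56 and 2.65 at 48 h. The SD between replicates was 0.04 at 24 h and 0.06 at 48 h (n = 2), against 0.30 in unstimulated cells, and all 3 groups were apart. The change was 2.56 (SE 0.17, 2.14 to 2.97) at 24 h, a 5.89-fold higher signal, and 2.76 (2.34 to 3.17) or 6.76-fold at 48 h. *Pros1* stayed called at both times under all 17 other settings.

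*Gas6*, the other vitamin K-dependent TAM ligand, was well above background on all 6 arrays at a low signal. It read −3.76 and −3.36 in unstimulated cells, −3.73 and −3.61 at 24 h, and −4.21 and −4.33 at 48 h. The 24 h values fell within the unstimulated range, and the 48 h values lay below the other 4. The change was −0.11 (−0.53 to 0.30) at 24 h and −0.71 (−1.12 to −0.29) at 48 h, under 2-fold. The 48 h arrays were lower than the 24 h arrays by a log2 difference of −0.60 (−1.01 to −0.18). On 48 h replicate 1 the lowest level well above background was −4.26, close to the *Gas6* value there. Under the 17 other settings the 48 h change ran from −0.91 to −0.26, and the difference between the times from −0.66 to −0.28.

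Between 48 h and 24 h 0 of the 9 tested members were called by limma, beside 2.27% of all genes. At an unadjusted p under 0.05, without regard to fold, 3 of the 9 passed between the times, beside 3353 of the 24634 tested genes. *Mrc1* and *Gas6* were lower and *Axl* was higher at 48 h. After adjustment 0 genes passed at any fold, these 3 included. The methods' t-test called 0. Over all genes 560 were called at an unadjusted p and 0 after adjustment. Groups did not overlap for 8 of the 9 members at 24 h, beside 59.0% of all tested genes, for 9 at 48 h, beside 58.8%, and for 5 between the times, beside 47.9%. The plot of fold changes sets the 9 side by side.

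**Figure D3:**
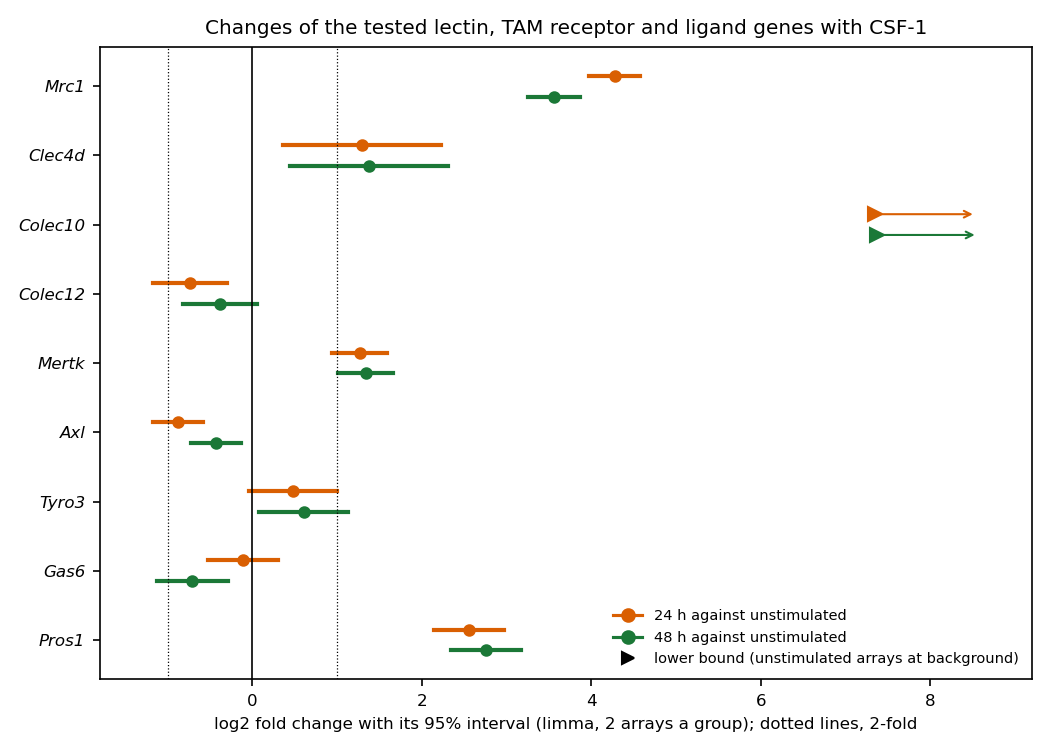
Log2 fold change of the 9 tested genes against unstimulated cells at 24 h and 48 h, with 95% intervals from the limma fit, 2 arrays per group; dotted lines mark 2-fold. Triangles with arrows give the lower bound for *Colec10*, whose unstimulated arrays were at background. *Mrc1*, *Mertk* and *Pros1* lie to the right with *Colec10*, *Axl* lies to the left of 0, and *Clec4d* has the widest intervals.

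Other genes of these pathways were taken from 7 lists that hold none of the members. They comprised 149 genes, of which 102 could be tested. Of these, 15 were called higher and 3 lower at 24 h, and 15 higher and 1 lower at 48 h, with 11 higher and 1 lower at both, beside the shares of all genes given above. Their median log2 change was 0.18 at 24 h and 0.06 at 48 h, against 0.04 and −0.04 over all tested genes, and it stayed 0.18 and 0.06 with genes at background set to their bound. Among C-type lectin receptors and the mannose receptor family, 26 of 54 genes could be tested, and 6 were called higher and 0 lower at each time, with a median of 0.22 at 24 h and 0.12 at 48 h. The plot of the lists shows that most tested genes of each list lay within 2-fold of unstimulated cells.

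**Figure D4:**
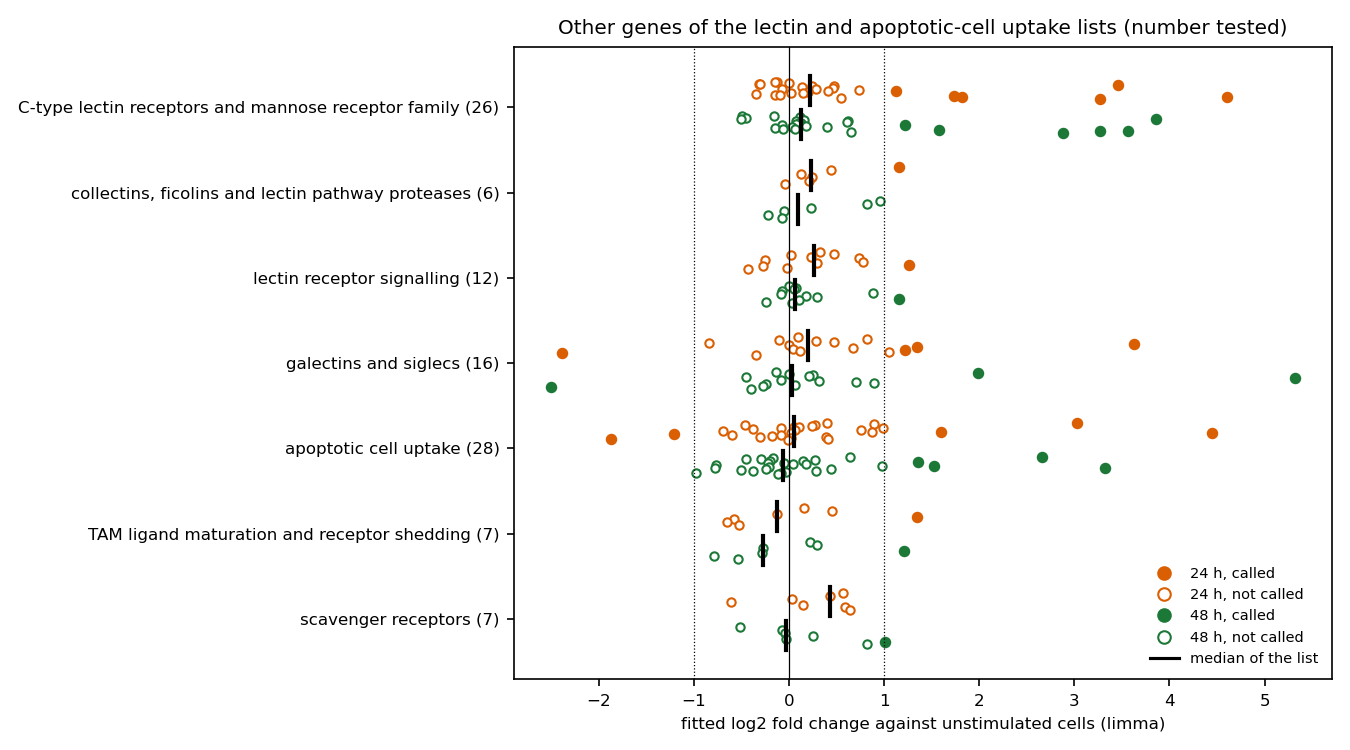
Fitted log2 fold change at 24 h and 48 h of each tested gene in 7 lists, with filled points for called genes and black bars for list medians; dotted lines mark 2-fold. Genes whose unstimulated arrays were at background are drawn at their fitted value, which is not a bound. The C-type lectin list has 6 filled points at each time, all to the right.

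Within the C-type lectin list, *Cd93*, a receptor of endothelial and myeloid cells, rose from −3.35 and −2.33 to 0.55 and 0.70 at 24 h and 0.59 and 1.44 at 48 h. Its change was 3.46 at 24 h and 3.86 at 48 h (limma adjusted p = 0.0095 and 0.0073). *Thbd*, which encodes thrombomodulin, the thrombin cofactor that activates protein C, rose from 1.36 and 1.41 to 4.16 and 5.14 at 24 h and 3.85 and 4.67 at 48 h, by 3.27 and 2.88. *Sele*, the endothelial adhesion lectin E-selectin, was not well above background on either unstimulated array and was at least 5.35-fold higher at 24 h and at least 2.12-fold at 48 h. *Pla2r1*, named here after its values were seen because it belongs to the mannose receptor family with *Mrc1*, was called at both times, but its adjusted p was 0.110 and 0.136, and 1 of its 2 unstimulated arrays was not well above background. With that signal set to the lowest level above background its change was at least 2.98-fold at 24 h and at least 2.68-fold at 48 h. The genes of this list that were not tested were too dim in every group, or, in the case of *Clec2f*, not on the array.

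Among the other collectins, ficolins and lectin pathway proteases, 6 of 9 could be tested, 1 was called at 24 h and 0 at 48 h, with medians of 0.23 and 0.09. The gene called was *Colec11*, named after its values were seen, which encodes a soluble collectin that assembles with the *Colec10* product. It was not well above background on either unstimulated array and on 1 of the 24 h arrays, and was at least 2.03-fold higher at 24 h. Of 12 tested lectin signalling genes 1 was called, at both times and higher, with medians of 0.27 and 0.06. This was *Ptpn6*, the SHP-1 phosphatase that inhibitory lectins recruit, with changes of 1.27 and 1.16. Among 16 galectins and siglecs, 3 were called higher and 1 lower at 24 h and 2 and 1 at 48 h, with medians of 0.20 and 0.03. *Lgals3bp*, a secreted glycoprotein that binds galectin-3, rose from −0.60 and 0.58 to 3.23 and 4.01 at 24 h and 5.16 and 5.47 at 48 h. *Siglecg*, an inhibitory sialic acid receptor of B cells, fell from −0.09 on both unstimulated arrays to −2.50 and −2.44 at 24 h and −2.21 and −2.96 at 48 h.

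Of 28 tested genes for the uptake of apoptotic cells, 3 were called higher and 2 lower at 24 h and 4 and 0 at 48 h, with medians of 0.06 and −0.06. *Itgb3*, the integrin subunit that forms the vitronectin receptor with the alpha v chain, was at least 14.5-fold higher at 24 h and at least 6.64-fold at 48 h, from 2 unstimulated arrays that were not well above background. *Abca1*, a lipid exporter with 1 of 2 unstimulated arrays above background, was at least 4.99-fold higher at 24 h and at least 3.84-fold at 48 h by the same floor, with limma adjusted p-values of 0.039 and 0.053. Among 7 genes for maturation of TAM ligands and shedding of their receptors, which include the vitamin K cycle enzymes, 1 was called at each time, with medians of −0.12 and −0.28. The gene was *Furin*, a proprotein convertase, which rose from 2.32 and 2.65 to 3.76 and 3.91 at 24 h and 3.60 and 3.80 at 48 h. Of 7 tested scavenger receptors 0 were called by limma at 24 h and 1, *Scarb2*, at 48 h, with medians of 0.43 and −0.03.

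The genome neighbours of the 10 members were examined as well. The 2 nearest genes of the RefSeq order on either side that were also on the array numbered 40, of which 24 could be tested. Among these, 2 were called at 24 h and 1 at 48 h, beside 7.68% and 6.48% of all tested genes called in either direction, so the counts themselves are close to the background. These were identified after the values of the members had been seen. *Tnfrsf11b*, which encodes osteoprotegerin, the decoy receptor for RANKL, was called at both times, and it lies beyond the pseudogene *Gm5215* from *Colec10*. It read −3.70 and −3.82 in unstimulated cells, 1.08 and 1.27 at 24 h, and −0.23 and 0.68 at 48 h. The stimulated arrays were all above the unstimulated arrays, and the change was 4.94 at 24 h and 3.99 at 48 h (limma adjusted p = 0.0021 and 0.0028). *Gm5215* itself read 2.03 and 1.42 in unstimulated cells and between 1.36 and 1.48 on the stimulated arrays. On the other side, *Mal2* was not well above background on any array and *Enpp2* had changes of 0.03 and 0.30. Beyond *Anapc1* from *Mertk*, *Bcl2l11*, an apoptosis promoter, was called at 24 h with a change of 1.44. *Anapc1* itself was not called, with changes of −0.73 at 24 h and −0.74 at 48 h. The lectin genes beside *Clec4d* and *Clec7a* were too dim to test except *Clec4n*, with changes of 0.20 and 0.18.

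**Figure D5:**
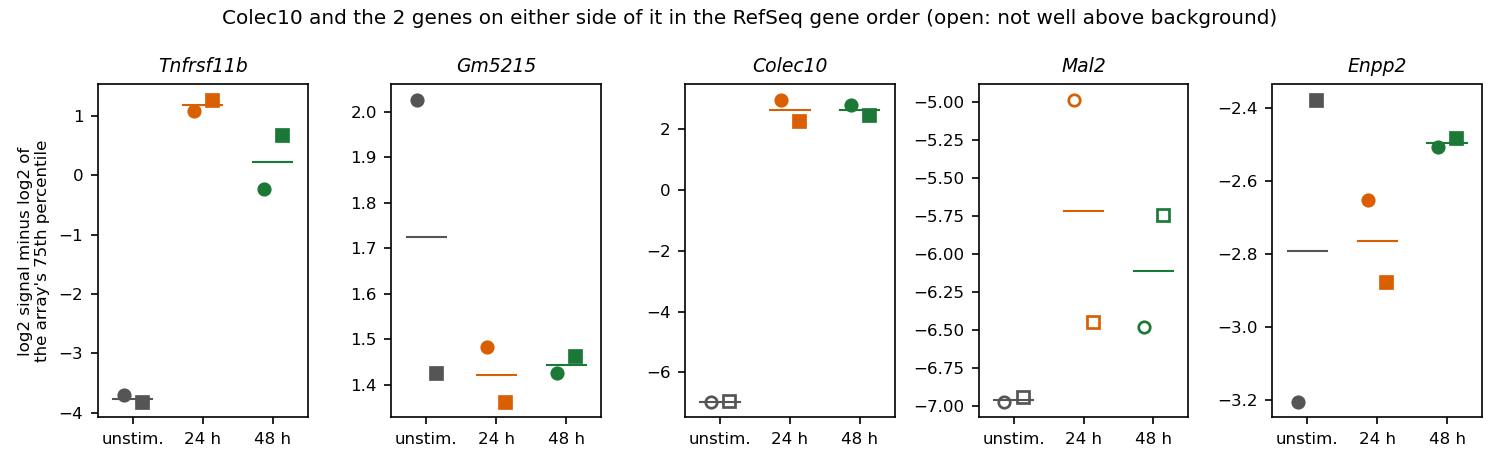
Signal of *Colec10* and of the 2 genes on either side of it in RefSeq order, by array, as log2 relative to the array's 75th percentile, each panel with its own axis; open symbols are spots not well above background. *Tnfrsf11b* and *Colec10* are higher on all 4 stimulated arrays, while *Enpp2* changed by 0.03 and 0.30 and *Mal2* stayed at background.

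The genes whose pattern over the 6 arrays was most like that of *Colec10*, by Pearson correlation of log2 values among tested genes with a RefSeq symbol, were *Il34*, *Btc*, *Prelid2*, *Flrt3* and *Dppa2*, with r from 0.997 to 0.9997. These 6 points fall into a low unstimulated pair and 4 stimulated arrays, and 59 genes had r above 0.99, so the order among them says little. *Il34* encodes the other ligand of the CSF-1 receptor, and it read 0.25 and 0.21 in unstimulated cells, 2.01 and 1.88 at 24 h, and 1.99 and 1.88 at 48 h. *Btc* encodes the EGF receptor ligand betacellulin, and its change was at least 20.4-fold at 24 h and at least 21.5-fold at 48 h when dim unstimulated signals were set to the lowest level above background.

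Because several members are markers of macrophages, 21 macrophage genes other than *Csf1r* were examined on the same arrays. The receptor gene *Csf1r*, carried by the retrovirus, read between 4.88 and 5.34 on all 6 arrays, with changes of 0.22 and −0.07. Of the 21, 10 could be tested and 1 was called, *Cd53*, a tetraspanin of leukocytes, which was at least 17.3-fold higher at 24 h and at least 29.0-fold at 48 h. The lineage factor gene *Spi1*, *Lyz2* and *Cd163* were not well above background on any array. *Ptprc*, *Itgam* and *Adgre1* were well above background on all 6 arrays and not called, with changes of 0.68, −0.43 and 0.19 at 24 h. Their levels were unlike. *Ptprc* read between −4.01 and −2.99 and *Adgre1* between −2.90 and −2.48, both low signals, while *Itgam* read between 4.40 and 5.40. The summed signal of the 21, in units of each array's 75th percentile, was 49.4 and 43.9 in unstimulated cells, 43.2 and 35.2 at 24 h, and 39.8 and 30.3 at 48 h, while between 8 and 14 of them were above background per array. The sum, most of it from *Itgam*, was lower on all 4 stimulated arrays than on either unstimulated array. By sign alone, 9 of the 10 tested markers were higher at 24 h and 6 at 48 h. Among them was *Cd14*, named here after its values were seen, with changes of 0.87 and 0.69, under 2-fold (limma adjusted p = 0.010 and 0.019). Counts by sign depend on the scaling, since median centring moved the median change of all genes at 24 h from 0.04 to −0.25. The signs of the markers were not counted under it. The part of these markers in the changes of the lectins and TAM genes was not tested.

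The line is described as epithelial, and 8 of 11 epithelial and prostate markers could be tested. Of the 11, 6 were well above background on all 6 arrays and 2 on none. *Cdh1* was not well above background on any array, and *Epcam* was so on 1 of the 6. *Trp63* read between 3.36 and 3.81 on the 6 arrays and was not called. Both *Cdh1* and *Trp63* are named after their values were seen. *Krt8* read −3.04 and −2.37 in unstimulated cells and was called higher at 48 h, with a change of 1.98, while *Krt18* was called at 24 h, at least 1.86-fold higher. Of 8 mesenchymal markers, all tested, 2 were called higher and 2 lower at 24 h and 1 higher and 3 lower at 48 h. *Vim* read between 7.96 and 8.36, with changes of −0.16 and −0.27. Named after their values were seen, *Acta2*, which encodes smooth muscle actin, was lower, with changes of −2.26 at 24 h and −3.48 at 48 h. *Pdgfrb* was also lower, with changes of −1.91 and −1.12, while *Dcn*, which encodes the proteoglycan decorin, was higher, with changes of 2.08 and 2.78. The summed signal of the 8, in units of each array's 75th percentile, was 518.7 and 568.5 in unstimulated cells, 417.5 and 455.2 at 24 h, and 375.1 and 409.7 at 48 h. Its part in the changes of the lectins and TAM genes was not tested.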

How the data were processed

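RNA of N18-Fms cells, either unstimulated or stimulated, was hybridised to 6 single-colour (Cy3) Agilent mouse arrays, 2 per group. The study's methods, though not the labels, state that RNA came from independent experiments. The times (24 h, 48 h) follow the labels, since the study's methods text gives other times. The authors deposited scanner output of Feature Extraction 11.0.1, whose processed signal is an intensity after background subtraction, and a table of log2 values, deposited by the authors for the same arrays, which was used as an alternative (99.78% of its differences between arrays lay within 0.05 of those computed here). Agilent's 60-base probes are placed on mm9 by the file headers, and the part of the transcript they lie in was not analysed here.

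Control spots and outlier-flagged spots were left out, spots of a probe were averaged, and log2 of the intensity was centred on each array's 75th percentile. The brightest probe stood for a gene (36028 genes usable). limma 3.58.1 in R 4.3.3 (lmFit and eBayes, 3 residual and 2.39 prior degrees of freedom) was fitted to all 6 arrays, and its functions were tested on simulated data. With 2 arrays against 2, an exact permutation test cannot give a two-sided p below 0.333, and none is given. If replicate arrays shared a culture, their spread would be technical. No saturated spots occurred; array number limits the precision. Where any array of the dimmer group was not well above background, a fold is given as "at least", with the lowest signal well above background on that array as its floor. *Colec10* was the member so treated, and no fold is given for *Clec7a*.

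The members and lists were chosen with earlier results of these data known. The text names the 10 members; from each pathway list the genes called at both times in the same direction, up to 3 per direction by mean absolute change; 5 genes most correlated with *Colec10*; and *Ptprc*, *Itgam*, *Adgre1*, *Spi1*, *Csf1r*, *Krt8*, *Krt18*, *Epcam* and *Vim*. A further marker of this rule is not reported here. Genes named beyond this rule were chosen after their values were seen. Older symbols on the array were matched through RefSeq synonyms. Promoters came from the RefSeq table for 8 of 10 members. Alternatives were normexp background correction, quantile normalization, median centring, the authors' table, other filters and probe rules, leaving out each array, replicate number or slide as a block, the compared groups alone, the methods' t-test and adjusted p-values.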

Additional observations from a re-analysis of the deposited data

How the results depend on the processing

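With all 6 arrays kept, the count of members called stayed between 4 and 6 at 24 h and between 4 and 5 at 48 h, and at 0 between the times. The members and directions behind the count were not always the same. Median centring called 4 higher and 2 lower at 24 h, with *Mertk* lost and *Axl* and *Colec12* called lower. Without unstimulated replicate 1, *Clec7a* entered the test with stimulated signals at background, as given above. Leaving out each array in turn gave 4 to 6 members at both times, 14 to 19 genes of the pathway lists, 1848 to 3325 of all genes at 24 h, 1615 to 2110 at 48 h and 602 to 1525 between the times. The highest counts at 24 h and between the times came without 24 h replicate 2, which leaves the array on the separate slide as the only 24 h array, assumed to vary like the other groups; between the times 893 genes were called without 24 h replicate 1 and 898 without 48 h replicate 2. With normexp background correction, 874, 888 and 162 of all genes were called at 24 h, 48 h and between the times, and 10 and 8 genes of the pathway lists. With genes above background on all 6 arrays alone, which drops those that start at background such as *Colec10*, 1099 were called at 24 h and 187 between the times, and 8 and 9 of the pathway lists. Without a filter on dim probes, 3270 were called at 24 h and 1352 between the times. The methods' t-test called 251 genes between the times, and adjusted p-values left 0 there, where 3353 had an unadjusted p under 0.05 at any fold in limma. The cause of these differences was not tested beyond the number of genes and arrays each setting keeps. Of 462 values of single members under the alternatives, 406 moved by less than the replicate SD, 56 by more, and 0 of the called ones changed sign.

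Labels number the arrays 1 and 2 in each group but do not say that a number marks a shared experiment. Same-numbered arrays deviated together with correlations of 0.128, 0.0944 and 0.199, and the numbers were not taken to pair the arrays. With the replicate number as a block, 5 members were called at each time and 0 between the times, as without it, and of all genes 1874 at 24 h, 1609 at 48 h and 568 between the times, with 18 and 16 genes of the pathway lists. With the slide as a block, 4 members were called at 24 h (without *Clec4d*) and 5 at 48 h, beside 2024 and 1591 of the 24634 tested genes. Since 24 h replicate 1 was alone on its slide, the block takes up that array. The 24 h changes then rest on 24 h replicate 2, as when replicate 1 is left out, so this is no separate check.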
